A study of Mus musculus with 6 samples.

Results

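Transcripts of 8 genes that mark bile duct cells or the liver's bipotent progenitors (*Spp1*, *Sox9*, *Onecut2*, *Epcam*, *Cd24a*, *Prom1*, *Krt19* and *Krt7*) were measured in cultured mouse hepatocytes with and without the succinate receptor gene *Sucnr1*. The genes were taken by symbol from a deposited table of raw read counts with 25184 genes, and all 8 had a row. The table holds 6 libraries of stranded, poly(A)-selected RNA, each from the primary hepatocytes of 1 mouse. The 3 control mice were *Sucnr1* fl/fl without Cre and carried *Sucnr1* alleles flanked by loxP sites. The 3 Hep-*Sucnr1* KO mice were *Sucnr1* fl/fl with 1 copy of Alb-Cre, in which the albumin promoter drives Cre and the receptor gene is deleted in hepatocytes. Both groups thus share the floxed alleles, and no group carried Cre alone. The mice ate chow, and their age and sex are not stated for these libraries. Cells of the left lateral lobe were released by enzymes, enriched on a density gradient and kept overnight on collagen before lysis. Replicate 1 of *Sucnr1* fl/fl and replicate 3 of Hep-*Sucnr1* KO were extracted on day 1. Replicates 2 and 3 of *Sucnr1* fl/fl and replicates 4 and 5 of Hep-*Sucnr1* KO were extracted on day 2.

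Hepatocytes and cholangiocytes, the epithelial cells that line the bile ducts, descend from a common embryonic precursor, the hepatoblast. Notch signalling and the transcription factors SOX9, ONECUT1 and ONECUT2 take part in the biliary choice. Cholangiocytes add the keratins KRT7 and KRT19 to the KRT8 and KRT18 that hepatocytes also make, and they carry EPCAM, CD24 and PROM1 (CD133) on their surface. SPP1, also called osteopontin, is a secreted phosphoprotein that binds integrins and CD44, and in the liver it is known from ducts, from macrophages and from injured tissue. Because the cells here were enriched as hepatocytes, the levels of these genes describe both the hepatocytes and whatever other cells came with them. In such bulk RNA, fewer cells of a type and less RNA per cell cannot be told apart.

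The libraries held between 30504248 and 38770694 counts. The *Sucnr1* transcript was read with 258, 118 and 103 counts in *Sucnr1* fl/fl replicates 1, 2 and 3 and with 84, 28 and 5 counts in Hep-*Sucnr1* KO replicates 3, 4 and 5. It was lower in every Hep-*Sucnr1* KO library, at 1.21 ± 1.30 against 4.55 ± 1.87 CPM (counts scaled by TMM to a common library total; SD, n = 3 each; two-sided exact permutation p = 0.1, the smallest possible with 3 against 3). The day 1 Hep-*Sucnr1* KO library retained the most, 2.66 CPM. *Alb*, which encodes albumin and defines hepatocytes, averaged 54454 CPM, and the 18 hepatocyte identity genes were all above 1 CPM. The summed level of 15 Kupffer cell (liver macrophage) markers ranged from 62.2 to 193 CPM in *Sucnr1* fl/fl and from 40.9 to 157 CPM in Hep-*Sucnr1* KO.

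By mean CPM the 8 genes fell into 3 at 42.6 or more (*Spp1*, *Sox9* and *Onecut2*) and 5 at 1.67 or less. Per exon length *Onecut2* ranked only 6889 among the 15105 genes tested, against 2757 by CPM. *Spp1* was the most abundant, and the promoters of *Spp1* and of the scarce surface marker *Epcam* are shown as an example from each side of that contrast. Each line gives the 250 bases before the RefSeq transcription start, 5′ to 3′ on the + strand of GRCm38.p6, for the first listed *Spp1* start at chr5:104434861-104435110 and for *Epcam* at chr17:87635729-87635978. Capitals mark matches to the searched letters.
Spp1: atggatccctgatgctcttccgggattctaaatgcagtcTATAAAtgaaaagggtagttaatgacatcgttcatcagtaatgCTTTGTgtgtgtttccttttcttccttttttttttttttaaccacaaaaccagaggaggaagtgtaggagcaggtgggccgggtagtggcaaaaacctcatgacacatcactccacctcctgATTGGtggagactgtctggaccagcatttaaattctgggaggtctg
Epcam: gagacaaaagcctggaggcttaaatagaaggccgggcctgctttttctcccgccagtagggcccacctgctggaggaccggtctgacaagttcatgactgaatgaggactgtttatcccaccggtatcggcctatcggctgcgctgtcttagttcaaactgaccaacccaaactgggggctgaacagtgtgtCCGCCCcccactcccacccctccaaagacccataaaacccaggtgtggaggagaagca
Of the 8 genes, *Spp1*, *Krt7*, *Epcam* and *Prom1* had a promoter in the RefSeq table, and *Sox9*, *Onecut2*, *Cd24a* and *Krt19* had none. In the *Spp1* promoter printed above the capitals are TATAAA, which starts 211 bases before the transcription start, the SOX letters ACAAAG read on the other strand (168 bases before) and CCAAT read on the other strand (46 bases before). The *Epcam* promoter held the GC box letters GGGCGG on the other strand, 58 bases before the start. The letters were searched on both strands of 27025 promoter stretches of this length, of which 13.0% held TATAAA, 16.5% ACAAAG, 34.5% CCAAT and 32.9% GGGCGG. The *Krt7* promoter held 4 matches to GGGCGG, and its G+C content was 66.0%, against 43.6% for the printed *Spp1* promoter and 56.4% for *Epcam*. A further *Spp1* promoter in the table (chr5:104435942-104436191) had a G+C content of 35.6%, a match to ACAAAG 243 bases before its start and no match to TATAAA or CCAAT. The ONECUT letters ATTGAT, the TEAD letters GGAATG, the RBPJ letters GTGGGAA and the E-box CACGTG matched in none of the listed promoters of these 4 genes, and they were held by 6.97%, 12.6%, 5.41% and 6.05% of all promoters. The AP-1 letters TGANTCA, held by 6.87% of all promoters, matched among these genes in the 2 promoters of *Prom1*. A match describes letters and not binding, and promoter activity was not measured.

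*Spp1* (ENSMUSG00000029304, chr5:104435118-104441050, + strand) encodes osteopontin. It was read with 13105, 8835 and 12132 counts in *Sucnr1* fl/fl replicates 1, 2 and 3 and with 16610, 11278 and 11116 counts in Hep-*Sucnr1* KO replicates 3, 4 and 5. These were 341, 266 and 400 CPM and 526, 333 and 337 CPM, so the day 1 Hep-*Sucnr1* KO library was highest, *Sucnr1* fl/fl replicate 2 was lowest and the groups overlapped. By mean CPM *Spp1* ranked 304 among the 15105 genes tested, and *Alb* exceeded it 89.3 to 204 times on the CPM scale. *Spp1* alone made up 65.6 to 75.2% of the counts of the 8 genes in each library.

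*Sox9* (ENSMUSG00000000567, chr11:112782224-112787760, + strand), the SOX-family transcription factor of early biliary cells and of some periportal hepatocytes, reached 120, 83.1 and 108 CPM in *Sucnr1* fl/fl and 122, 116 and 84.8 CPM in Hep-*Sucnr1* KO. Its lowest libraries were 1 of each genotype, both from day 2. *Onecut2* (ENSMUSG00000045991, chromosome 18), a cut-homeodomain factor that acts with ONECUT1 in duct formation, reached 55.7, 39.6 and 47.6 CPM in *Sucnr1* fl/fl and 48.3, 33.7 and 30.6 CPM in Hep-*Sucnr1* KO. The 2 lowest values were the day 2 Hep-*Sucnr1* KO libraries, and the groups overlapped only through the day 1 Hep-*Sucnr1* KO library, which lay above the other two *Sucnr1* fl/fl values of day 2. Together *Spp1*, *Sox9* and *Onecut2* held 98.9 to 99.6% of the counts of the 8 genes.

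The surface proteins were scarce. *Epcam* (ENSMUSG00000045394, chr17:87635979-87651129, + strand), an epithelial adhesion molecule, had 72, 30 and 64 counts in *Sucnr1* fl/fl and 61, 21 and 86 counts in Hep-*Sucnr1* KO, or 0.620 to 2.61 CPM. *Cd24a* (ENSMUSG00000047139, chr10:43578284-43584265, + strand), a lipid-anchored sialoglycoprotein also found on blood cells, had 30, 25 and 49 counts in *Sucnr1* fl/fl and 15, 40 and 42 counts in Hep-*Sucnr1* KO, or 0.475 to 1.62 CPM. *Prom1* (ENSMUSG00000029086, chr5:43993620-44102032, - strand), a membrane protein of cell protrusions, had 6, 7 and 5 counts against 2, 2 and 5 counts. Each genotype had libraries with high and low *Epcam* and *Cd24a*, whereas the 3 *Prom1* values of Hep-*Sucnr1* KO (0.0914 ± 0.0523 CPM) all lay below those of *Sucnr1* fl/fl (0.177 ± 0.0292 CPM).

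The biliary keratins were lower still. *Krt19* (ENSMUSG00000020911, chr11:100140810-100148665, - strand), an acidic keratin, had 23, 8 and 27 counts in *Sucnr1* fl/fl and 12, 4 and 27 counts in Hep-*Sucnr1* KO, or 0.118 to 0.890 CPM. *Krt7* (ENSMUSG00000023039, chr15:101411043-101430313, + strand), its basic partner in ducts, had 5, 4 and 10 counts against 2, 0 and 3 counts. The count of 0, in Hep-*Sucnr1* KO replicate 4, allows up to 3 counts, or 0.0886 CPM, by counting error alone. At these counts the *Krt7* groups, 0.193 ± 0.118 and 0.0514 ± 0.0467 CPM, did not overlap, and the values of *Krt7* and *Prom1* rest on at most 10 read pairs in any library.

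**Figure D1:**
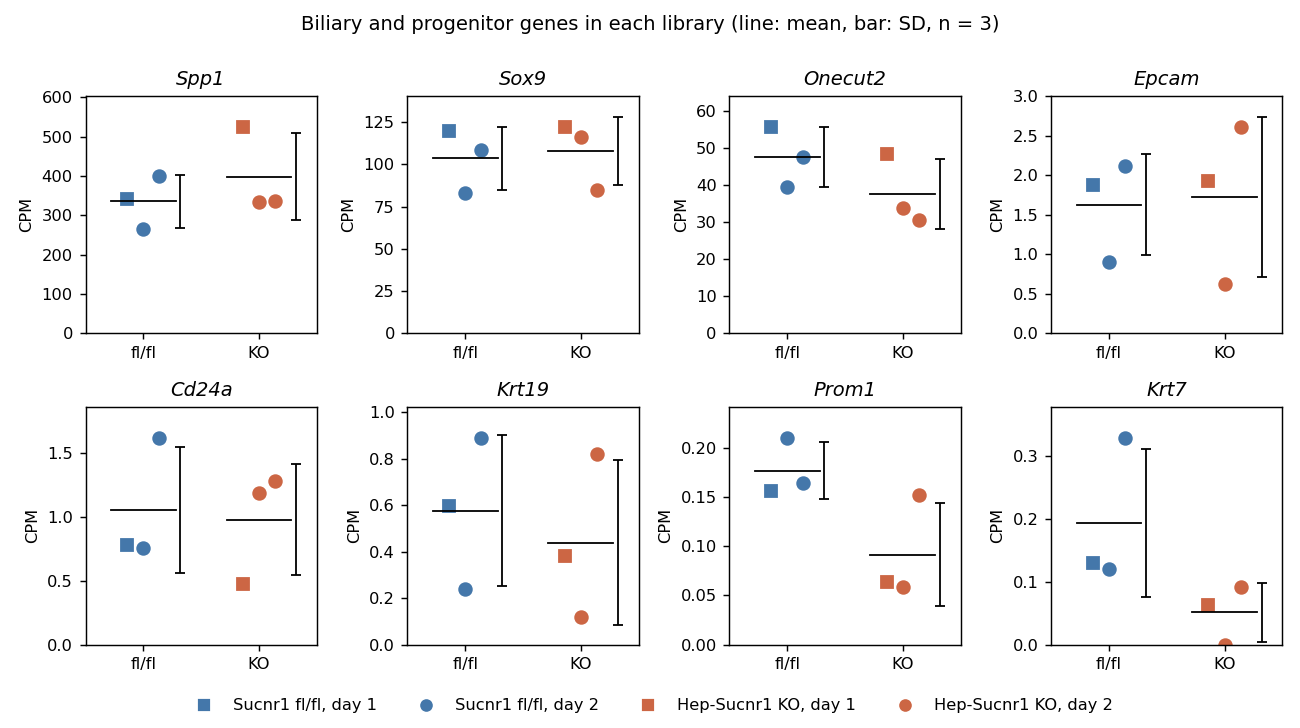
CPM of each gene in the 3 *Sucnr1* fl/fl (blue) and 3 Hep-*Sucnr1* KO (orange) libraries, with squares for extraction day 1, circles for day 2, a line at the mean and a bar for the SD. *Spp1* lies between 266 and 526 CPM and *Krt7* between 0 and 0.330 CPM, and the groups overlap for all genes but *Prom1* and *Krt7*.

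Levels were compared between genes per length, as RPKM (CPM per kilobase of the union of a gene's exons, computed here). *Spp1* averaged 223 ± 53.8 RPKM over the 6 libraries (SD), *Sox9* 25.6 ± 4.24 and *Onecut2* 2.62 ± 0.593 RPKM. *Epcam* (0.763 ± 0.346), *Cd24a* (0.393 ± 0.162) and *Krt19* (0.274 ± 0.169) followed, then *Prom1* (0.0187 ± 0.00841) and *Krt7* (0.0174 ± 0.0159). The ranges over libraries were apart between *Spp1* and *Sox9* (an 8.71-fold ratio of means), *Sox9* and *Onecut2* (9.75-fold), *Onecut2* and *Epcam* (3.44-fold) and *Krt19* and *Prom1* (14.6-fold). Neighbours in the order *Epcam*, *Cd24a*, *Krt19* overlapped, as did *Prom1* and *Krt7*. Per kilobase of coding length instead of exon length, *Spp1* had 415, *Sox9* 69.5, *Onecut2* 28.1, *Cd24a* 2.79, *Epcam* 1.77, *Krt19* 0.420, *Krt7* 0.0892 and *Prom1* 0.0502. On that scale *Onecut2* moved closer to *Sox9*, and *Cd24a* passed *Epcam* and *Krt7* passed *Prom1*. *Krt8* and *Krt18*, the keratins shared by hepatocytes and cholangiocytes, reached 828 to 1578 and 1187 to 2201 RPKM, and *Krt18* exceeded *Krt19* by 4524 to 18638 times per library. The share of a biliary gene's RNA that came from duct cells was not tested.

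**Figure D2:**
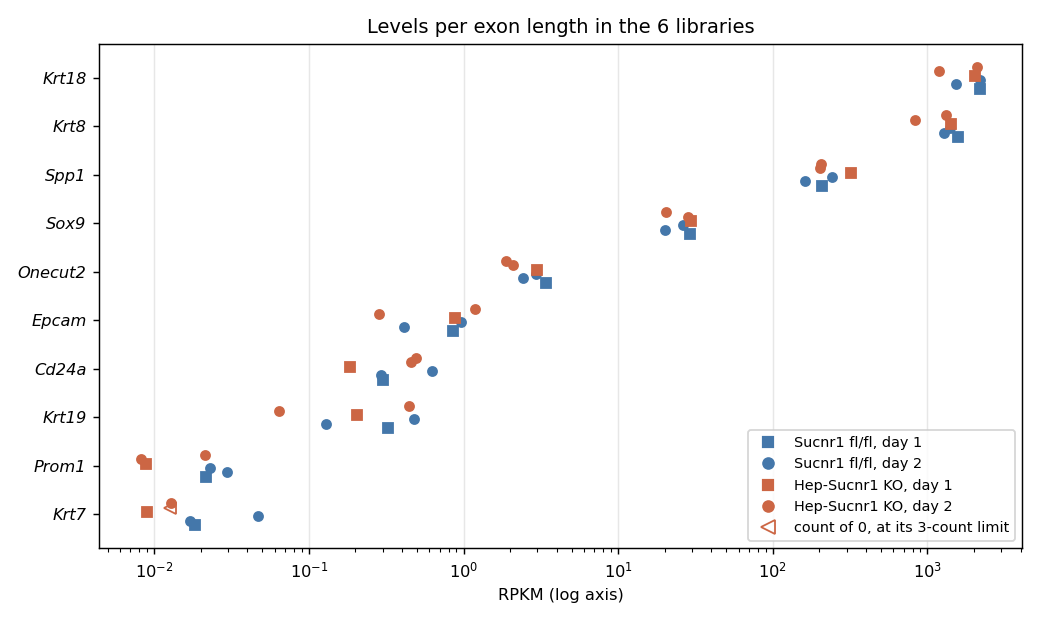
Level per exon length (RPKM, log axis) of the 8 genes and of *Krt8* and *Krt18* in the 6 libraries, coloured by genotype and shaped by extraction day, with an open triangle where *Krt7* had a count of 0, at its limit of 3 counts. *Spp1* stands near 223 RPKM, below the hepatocyte keratins, and the duct keratins *Krt19* and *Krt7* average 0.274 and 0.0174 RPKM.

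The spread between libraries was 16.6% of the mean for *Sox9*, 22.6% for *Onecut2* and 24.1% for *Spp1* (coefficient of variation of CPM, n = 6). It was larger for the scarce genes, at 41.2% for *Cd24a*, 45.0% for *Prom1*, 45.3% for *Epcam*, 61.7% for *Krt19* and 91.3% for *Krt7*.

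Genotype was compared in edgeR with extraction day as covariate, over the 15105 genes whose mean normalized count exceeded 5, and with Benjamini-Hochberg adjustment (FDR) over all of them. *Prom1* and *Krt7* did not reach that minimum, which leaves 6 of the 8 genes. At an FDR below 0.05, 0 of the 6 were called, as were 0 of all genes (0%), whereas DESeq2 called 7 of all genes and 0 of the 6. At an unadjusted p below 0.05 edgeR gave 562 genes (3.72%), of which *Onecut2* was the only one of the 6. All 6 had an FDR of 0.998. Deletion of *Sucnr1* in hepatocytes thus came with no change in these genes that passed the test. *Sucnr1* itself was among the genes tested, with a log2 fold change of −2.23, and edgeR did not call it either.

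*Onecut2* averaged 37.5 ± 9.46 CPM in Hep-*Sucnr1* KO and 47.6 ± 8.08 CPM in *Sucnr1* fl/fl (SD, n = 3 each; exact permutation p = 0.3, two-sided). The log2 fold change was −0.36 ± 0.12 (SE), with a 95% interval from −0.65 to −0.07 and an unadjusted p of 0.0216 in edgeR (FDR 0.998). Within day 1 the Hep-*Sucnr1* KO library lay 0.21 below its control on the log2 scale, and on day 2 all 4 pairs of 1 library of each genotype had the Hep-*Sucnr1* KO library lower, by 0.23 to 0.64. Over 14 alternative fits the fold change stayed between −0.55 and −0.26, the unadjusted p between 0.0134 and 0.129 and the FDR between 0.908 and 1.00. The difference therefore had 1 direction within both days but failed the correction over all genes.

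*Spp1* averaged 399 ± 110.0 CPM in Hep-*Sucnr1* KO and 335 ± 67.3 CPM in *Sucnr1* fl/fl (SD, n = 3 each; exact permutation p = 0.6, two-sided). The fitted log2 difference was 0.21 ± 0.21 (SE), and the 95% interval from −0.28 to 0.71 left room for a moderate difference either way. The log2 difference was 0.63 on day 1, with 1 library each, and 0.04 on day 2. Without Hep-*Sucnr1* KO replicate 3 the fitted fold change was 0.0047, and without *Sucnr1* fl/fl replicate 1, its only partner on day 1, it was 0.01. With the index series of the libraries as a further covariate it was −0.21. This series, read from the library names, separates *Sucnr1* fl/fl replicates 1 and 2 from the other 4 libraries.

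*Sox9* averaged 108 ± 20.1 against 104 ± 18.7 CPM, with a log2 fold change of 0.06 and a 95% interval from −0.33 to 0.45. *Epcam* had a log2 fold change of 0.08 with an interval from −1.22 to 1.39, *Cd24a* one of −0.17 with an interval from −1.08 to 0.74, and *Krt19* one of −0.39 with an interval from −2.15 to 1.37. The intervals of *Epcam* and *Krt19* held log2 differences of 1 in both directions and that of *Cd24a* a fall by 1, so differences of that size were not excluded. The sign of the fitted change of *Krt19*, *Sox9*, *Epcam* and *Cd24a* turned in at least 1 fit without a library.

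For *Prom1* and *Krt7* all 3 Hep-*Sucnr1* KO values lay below all 3 *Sucnr1* fl/fl values, with a two-sided exact permutation p of 0.1 each. Groups that did not overlap were found for 2 of the 8 genes and for 8.26% of the whole table, and for 0 of the 6 tested genes against 10.6% of all tested genes. In a fit without the minimum count the log2 fold change was −0.97 for *Prom1* (95% interval −2.55 to 0.62) and −1.83 for *Krt7* (−3.82 to 0.16), with an FDR of 0.951 for both in edgeR. Both intervals reach from a large fall to a rise.

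**Figure D3:**
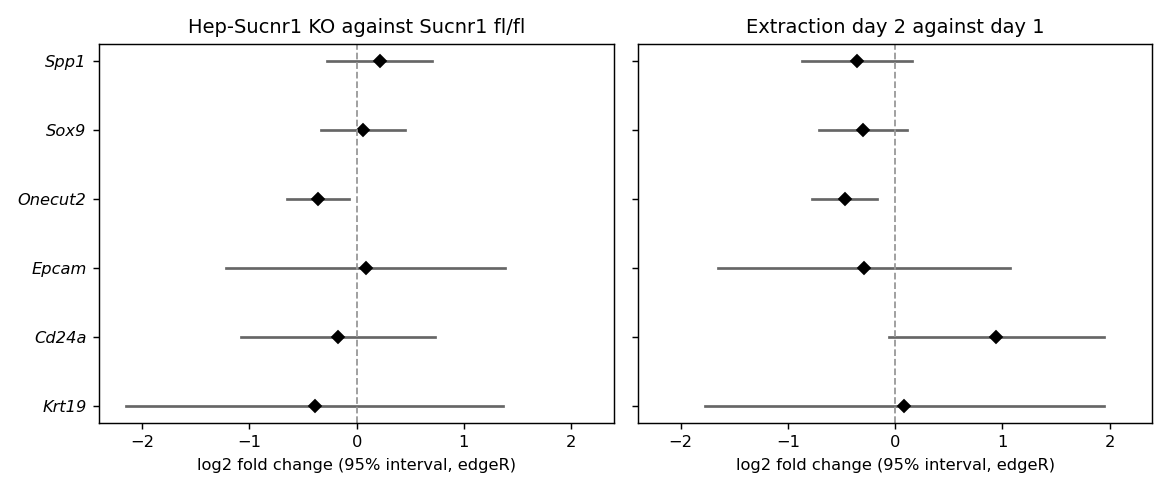
Log2 fold changes with 95% intervals from edgeR for the 6 genes above the minimum count, for genotype (left) and extraction day (right), with a dashed line at 0. The *Onecut2* intervals lie below 0 in both panels (−0.65 to −0.07 and −0.77 to −0.17), and the widest interval belongs to *Krt19*.

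The extraction day was the other labelled condition, with 2 libraries on day 1 and 4 on day 2. At an FDR below 0.05 edgeR called 0 of the 6 genes and 0 of all genes (0%), and DESeq2 called 0 of the 6 and 220 of all. At an unadjusted p below 0.05 there were 1132 genes (7.49%), again with *Onecut2* as the only one of the 6. *Onecut2* had a log2 fold change of −0.47 on day 2 against day 1 (95% interval −0.77 to −0.17, edgeR unadjusted p = 0.00785, FDR 0.508). Its 2 day 1 values, 48.3 and 55.7 CPM, lay above the 4 day 2 values, which reached at most 47.6 CPM. *Cd24a* went the other way, with 0.475 and 0.780 CPM on day 1, 0.752 to 1.62 CPM on day 2 and a log2 fold change of 0.95 (95% interval −0.06 to 1.95, FDR 0.711). *Spp1* (−0.35) and *Sox9* (−0.30) had intervals on both sides of 0. Without Hep-*Sucnr1* KO replicate 3 the day value of *Cd24a* was 0.55 and that of *Spp1* −0.07, and without *Sucnr1* fl/fl replicate 1 that of *Spp1* was −0.65.

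Whether the genotype difference itself differed between the days was tested as an interaction. At an FDR below 0.05 edgeR called 0 of the 6 genes and 0 of all (0%), DESeq2 0 of the 6 and 4 of all. At an unadjusted p below 0.05 there were 557 genes (3.69%) and none of the 6. For *Spp1*, whose difference was larger on day 1, the interaction was −0.61 on the log2 scale (95% interval −1.61 to 0.38, edgeR unadjusted p = 0.182, FDR 1.00).

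The genes did not vary as 1 block across the 6 libraries. *Krt19* and *Epcam* had the most alike profiles of the 28 pairs (Pearson r = 0.942, Spearman rho = 0.886 over the log2 CPM of 6 libraries, as a description). Both were lowest in Hep-*Sucnr1* KO replicate 4 (−1.79 and −1.27 on the log2 scale from the mean of the 6) and next lowest in *Sucnr1* fl/fl replicate 2 (−0.77 and −0.73). *Sucnr1* fl/fl replicate 3 and Hep-*Sucnr1* KO replicate 5 were high for both. *Spp1* in the same 4 libraries stayed within 0.43 of its mean. The least alike pair was *Sox9* and *Prom1* (r = −0.67), where *Prom1* had at most 7 counts.

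**Figure D4:**
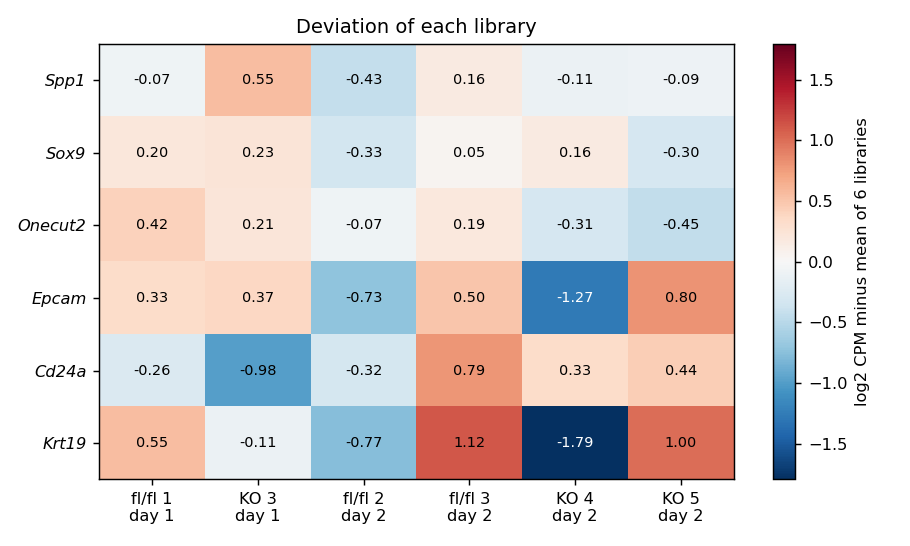
Log2 CPM of each library minus the average over the 6 libraries, for the 6 genes above the minimum count, with libraries in columns ordered by extraction day and red above, blue below the mean. *Krt19* and *Epcam* share their low libraries (−1.79 and −1.27 in Hep-*Sucnr1* KO replicate 4), and *Cd24a* is lowest in Hep-*Sucnr1* KO replicate 3 (−0.98), where *Spp1* is highest (0.55).

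*Spp1* was compared with each of the other 7 genes over the 6 libraries. The largest Pearson r was with *Sox9* (r = 0.656, two-sided exact permutation p = 0.142, adjusted over 7 relations 0.685, Spearman rho = 0.714, exact p = 0.136). Without the 2 libraries farthest from the median of *Spp1*, Hep-*Sucnr1* KO replicate 3 and *Sucnr1* fl/fl replicate 2, r was 0.076. Leaving out these libraries narrows the range of *Spp1* itself. It also moved r from −0.59 to 0.494 for *Prom1*, from −0.31 to 0.645 for *Cd24a* and from 0.042 to 0.827 for *Krt7*. The relations with *Sox9*, *Prom1*, *Cd24a* and *Krt7* thus did not keep their size. For *Onecut2* r went from 0.403 to 0.445, for *Epcam* from 0.479 to 0.372 and for *Krt19* from 0.270 to 0.530. Over all 6 libraries the values of r other than that of *Sox9* ran from −0.59 (*Prom1*) to 0.479 (*Epcam*). No adjusted exact p was below 0.520. No r was computed within a day, since day 1 has 2 libraries and day 2 has 4.

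The whole transcriptome held genes with closer profiles. Among 11713 genes with a mean of at least 1 CPM, those most like *Spp1* were *Gm9790* (r = 0.983), *Ncaph2* (0.976) and *Prelid1* (0.966), those most like *Sox9* were *Pcid2* (0.986), *Tspan12* (0.967) and *Smim10l1* (0.964), and those most like *Onecut2* were *AC125110.1* (0.988), *Wasl* (0.982) and *Myo6* (0.977). For *Epcam* they were *Gmcl1* (0.992), *Ulk3* (0.992) and *Anxa7* (0.991), for *Krt19* *Amdhd1* (0.995), *B4galt3* (0.994) and *Sdsl* (0.992), and for *Cd24a* *Pde1b* (0.995), *Tbk1* (0.994) and *Gpr137b-ps* (0.994). None of these 18 was another of the 8 genes, but *Krt19*, *Prom1* and *Krt7* averaged below 1 CPM and were not candidates. With 6 libraries, 6 genes exceeded an r of 0.95 with *Spp1* and 195 with *Cd24a*. For *Prom1* and *Krt7*, at 10 counts or fewer, the closest profiles were those of *Gm27177*, *Abhd2* and *Apbb2* and of *Zfp449*, *Cbx3-ps6* and *Clec2h*.

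Other markers of bile ducts also ran from high to low CPM. Of 28 further biliary genes, all with a row, 13 averaged at least 1 CPM and 15 less. *Pigr*, the receptor that carries antibodies into bile, had the highest level at 988 CPM, and *Slc4a4*, *Elf3* and *Alcam* reached 127, 92.8 and 85.7 CPM. The chloride channel *Cftr*, the secretin receptor *Sctr* and the metalloprotease *Mmp7*, by contrast, averaged 0.183, 0.00549 and 0.0155 CPM. At an unadjusted p below 0.05, 1 of the 24 tested was higher in Hep-*Sucnr1* KO and 1 lower (of all genes 3.72% in either direction), with 0 at an FDR below 0.05 and a median log2 fold change of −0.17 (all genes 0.00). The higher one was *Slc5a1*, a glucose cotransporter, at 1.31 ± 0.456 against 0.679 ± 0.161 CPM (n = 3 each), and the lower one *Alcam*, an adhesion molecule, at 76.8 ± 6.49 against 94.6 ± 10.9 CPM. *Cftr* had the lowest fitted change (−1.54).

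Of 17 fate factors, which include *Onecut2* and *Sox9*, 16 were tested, 0 had an unadjusted p below 0.05 for genotype and the median log2 fold change was −0.15. The hepatocyte factor *Cebpa* was the most abundant (311 CPM, −0.11), and the extremes were *Hnf4a*, which maintains the hepatocyte programme (0.19), and *Grhl2*, an epithelial factor of ducts (−0.51). The median was 0.02 without Hep-*Sucnr1* KO replicate 5 or with the index series as covariate. Of 16 fetal and progenitor genes 14 had a row and 7 were tested, with 0 below an unadjusted p of 0.05 and a median of −0.09. *Tnfrsf12a*, the TWEAK receptor, led them at 113 CPM, while *Afp*, the fetal albumin relative, had 0.601 CPM. The extremes were the surface glycoprotein *Thy1* (0.71) and the receptor kinase *Kit* (−0.48). The median was 0.02 without *Sucnr1* fl/fl replicate 2, 0.04 without a covariate and 0.18 with the index series as covariate. Of the simple keratins 5 of 6 had a row and 3 were tested, all with fitted values below 0 (median −0.27), from *Krt18* (−0.16) to *Krt23* (−1.38, edgeR unadjusted p = 0.0542).

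Osteopontin is bound by integrins and by CD44. Of 11 such receptor genes 9 were tested and 0 had an unadjusted p below 0.05 for genotype (median −0.17). *Itgb1*, the common β1 chain, was the most abundant (164 CPM, −0.10), *Itga4* had the highest (0.25) and *Cd44* the lowest value (−0.32). The median of the receptors was 0.01 with day 2 alone or without Hep-*Sucnr1* KO replicate 3 and 0.03 without *Sucnr1* fl/fl replicate 1. On day 2 *Cd44* had a log2 fold change of 1.82 against day 1 (edgeR unadjusted p = 0.0207, FDR 0.549). The 4 genes next to *Spp1* in the osteopontin family of matrix proteins are not analysed here. Of 11 partners of EPCAM, CD24 and PROM1, 9 were tested and 0 had an unadjusted p below 0.05 (median −0.13). Their most abundant gene per exon length was *Cldn3*, a tight junction protein (22.3 RPKM, log2 fold change −0.13), and *Spint1*, a protease inhibitor, had the lowest value (−0.57).

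The Notch and YAP pathways steer hepatocytes towards a biliary state. Of 15 Notch genes 10 were tested, 2 had lower and 0 had higher levels in Hep-*Sucnr1* KO at an unadjusted p below 0.05 (of all genes 3.72% in either direction), and 0 at an FDR below 0.05 (median −0.30). *Hes1*, a target of Notch, had 18.1 ± 1.58 against 25.0 ± 2.98 CPM (n = 3 each; log2 fold change −0.46, edgeR unadjusted p = 0.0044, FDR 0.998), and *Notch2*, the receptor of duct formation, 40.7 ± 1.96 against 54.0 ± 11.1 CPM (−0.40). The groups did not overlap for either, as for 10.6% of all genes tested. The extremes were *Hey1* (0.07) and *Dll4* (−0.89). With the day 2 libraries alone or without Hep-*Sucnr1* KO replicate 3 the median of the Notch genes was 0.02, and without *Sucnr1* fl/fl replicate 1 it was 0.03.

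Of 14 YAP targets and partners, all tested, 0 were higher and 3 lower at an unadjusted p below 0.05 (of all genes 3.72% in either direction), and 0 at an FDR below 0.05 (median −0.35). *Ccn1*, a secreted matrix protein, had 115 ± 23.2 against 158 ± 1.65 CPM (log2 fold change −0.46), *Tead1*, the DNA-binding partner of YAP, 52.3 ± 7.16 against 70.2 ± 5.09 CPM (−0.43) and *Ptpn14*, a phosphatase of the pathway, 3.48 ± 1.07 against 6.08 ± 1.26 CPM (−0.79; n = 3 each). Their summed level was 472 to 481 CPM in *Sucnr1* fl/fl and 352 to 424 CPM in Hep-*Sucnr1* KO, without overlap. Taken singly, 10.6% of all genes tested had groups that did not overlap. The extremes were *Birc5* (0.84) and *Ccn2* (−1.26), and the median was below 0 in the fit above and in its 14 alternatives.

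Markers of the other liver cells were present at low levels and moved with the libraries. All 15 Kupffer markers were tested, led by *Cd68* (31.8 CPM). For genotype 0 had an unadjusted p below 0.05 (median −0.40, from −1.18 for *Marco* to −0.08 for *Cd68*). That median was 0.18 with day 2 alone and without either day 1 library, and −0.97 without *Sucnr1* fl/fl replicate 2. On day 2 against day 1, 9 were higher at an unadjusted p below 0.05 (of all genes 7.49% in either direction), with a median of 2.02. Of 9 genes of SPP1-positive macrophages 8 were tested, with 0 at an unadjusted p below 0.05 for genotype. These 8 had fitted genotype values above 0 (median 0.42), as did 7624 of all 15105 genes tested. They ran from *Cd9* (0.05) to *Itgax* (0.88), with *Fabp5* (125 CPM, 0.38) the most abundant. Their median was 0.05 without Hep-*Sucnr1* KO replicate 5, 0.10 with the index series as covariate and 0.12 without *Sucnr1* fl/fl replicate 2. It was 0.71 without *Sucnr1* fl/fl replicate 3. Hepatocytes also express some of this list. *Trem2*, which defines those macrophages, had 0 to 5 counts per library.

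The Kupffer marker sum did not follow *Spp1*. Hep-*Sucnr1* KO replicate 3 had the lowest sum (40.9 CPM) and the highest *Spp1* (526 CPM), and *Sucnr1* fl/fl replicate 3 had the highest sum (193 CPM) and the next highest *Spp1* (400 CPM). *Cd24a*, by contrast, was lowest (0.475 CPM) where the sum was lowest and highest (1.62 CPM) where it was highest, and only the neighbours Hep-*Sucnr1* KO replicates 4 and 5 exchanged places between the 2 orders. The part of Kupffer cells in the *Cd24a* values was not tested.

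**Figure D5:**
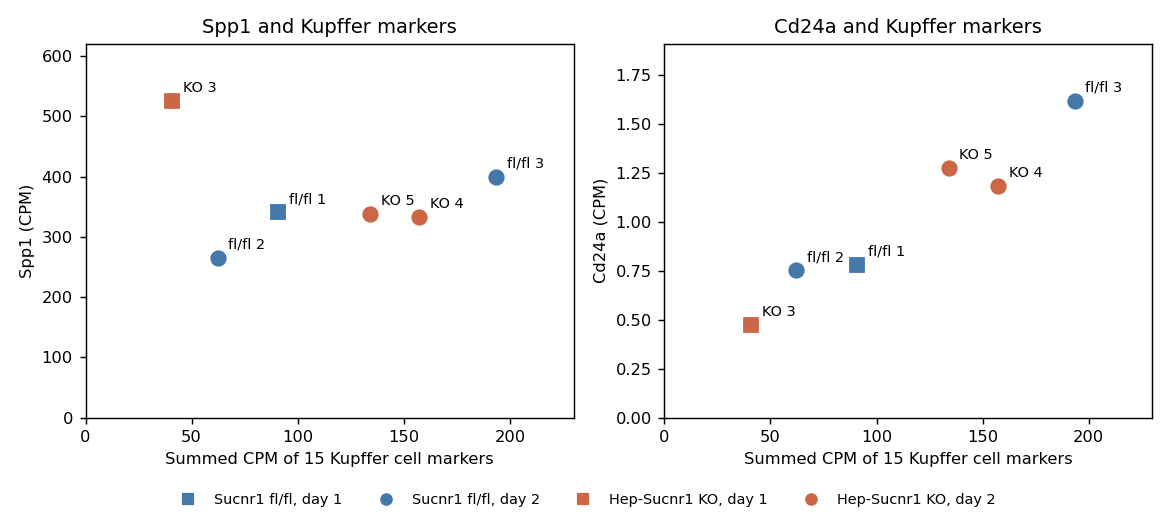
*Spp1* (left) and *Cd24a* (right) in CPM against the summed CPM of 15 Kupffer cell markers in the 6 libraries, coloured by genotype and shaped by extraction day. *Cd24a* goes from 0.475 CPM at a sum of 40.9 CPM to 1.62 CPM at a sum of 193 CPM, while the highest *Spp1* value, 526 CPM, stands at the lowest sum.

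All 13 sinusoidal endothelial markers were tested with 0 below an unadjusted p of 0.05 for genotype (median −0.26, but 0.10 with day 2 alone or without Hep-*Sucnr1* KO replicate 3 and 0.11 without *Sucnr1* fl/fl replicate 1). They were led by *Cdh5* (27.1 CPM) and ran from *Eng* (−0.68) to *Clec4g* (0.29), and their sum was 71.7 to 124 CPM in *Sucnr1* fl/fl and 46.4 to 81.4 CPM in Hep-*Sucnr1* KO. Of 14 stellate cell markers 9 were tested, with 1 higher (*Timp1*, log2 fold change 1.37) and 1 lower (*Reln*, −1.20) at that threshold (of all genes 3.72% in either direction) and a median of −0.31. This median was 0.22 with day 2 alone or without Hep-*Sucnr1* KO replicate 3, 0.24 without *Sucnr1* fl/fl replicate 1, 0.61 with the index series as covariate and −0.84 without Hep-*Sucnr1* KO replicate 5. Their most abundant gene was *Ecm1* (6.15 CPM), *Hgf* had the lowest value (−1.27), and their sum was 10.9 to 35.8 CPM in *Sucnr1* fl/fl and 11.6 to 16.1 CPM in Hep-*Sucnr1* KO. Of 8 mesothelial markers 6 had a row and *Krt19*, which mesothelium shares with ducts, was the only one tested. Their sum, with *Krt19* among them, stayed at or below 1.32 CPM in every library. The 18 hepatocyte identity genes had a median of 0.04 with 0 at an unadjusted p below 0.05, from *Fabp1* (−0.20) to *Cyp3a11* (0.33). Their median was −0.07 without *Sucnr1* fl/fl replicate 2, −0.06 with the index series and −0.03 without Hep-*Sucnr1* KO replicate 5. The part of these cells in the levels of the biliary genes was not tested.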

How the data were processed

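RNA-seq was analysed from 6 libraries, 3 of each genotype, grouped by their labels. Per the labels and methods, the authors trimmed stranded read pairs with Trim Galore 0.6.7, aligned them to GRCm38 with STAR 2.7.10a and counted them per Ensembl gene with featureCounts, using strand. They deposited these raw counts, with no normalization. The treatment of read pairs with several matching genes is not given in the sources used here, so values of genes with near-identical copies (*Cd24a*, *Krt8*, *Krt18*) are uncertain. Gene symbols and exon lengths were taken from GENCODE M21 (GRCm38), and 25130 of 25184 identifiers had a symbol. Promoters came from RefSeq (GRCm38.p6). No 2 replicate libraries agreed within sampling noise (chi-square per gene 45.6 to 107).

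CPM used TMM factors (edgeR 4.0.16, R 4.3.3). The genes tested had DESeq2-normalized counts that averaged above 5. The test was the quasi-likelihood test of edgeR with extraction day as covariate, two-sided, with Benjamini-Hochberg adjustment. Fold changes above 0 mean higher in Hep-*Sucnr1* KO. Correlations used log2 CPM with exact permutation of the 6 libraries. The alternatives were DESeq2 1.42.0, other scaling, other filters, no covariate, the index series as covariate, day 2 alone, another threshold, other gene lengths and each library left out. Tests were checked on simulated data. The biological coefficient of variation was 0.206. At 1 CPM a gene has more than 30 counts in each library. Intervals of counts of 0 cover counting error only.

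The 8 genes, the gene lists and the tests were chosen with earlier results of these data known. Named are the 8 genes, the 3 genes most like each in profile, and in each list the most abundant gene per length and the genes with the highest and lowest fold change. Some genes that this rule names are not reported here. *Slc4a4*, *Elf3*, *Alcam*, *Sctr*, *Mmp7*, *Afp*, *Notch2*, *Tead1*, *Ptpn14*, *Trem2*, *Reln*, *Krt8* and *Sucnr1* were named outside this rule, after their values were seen or as checks.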

Additional observations from a re-analysis of the deposited data

How the results depend on the processing

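The number of the 6 tested genes called at an FDR below 0.05 was 0 in all alternatives run for genotype, extraction day and their interaction, and over all genes the genotype count was 0 in all of them but DESeq2, with 7. Without the minimum count 2 of the 8 genes had groups that did not overlap, against 0 with it, since both (*Prom1* and *Krt7*) lie below that minimum. With the index series as a further covariate the genotype fold change (log2) turned to −0.21 for *Spp1*, −0.14 for *Sox9* and −0.49 for *Epcam*. With day 2 alone that of *Cd24a* turned to 0.054. The cause of these turns and of the DESeq2 count was not tested. With each library left out in turn the genotype fold change ran from 0.0047 to 0.46 for *Spp1* and from −0.45 to −0.26 for *Onecut2*, which kept its sign. It ran from −1.38 to 0.19 for *Krt19* (turned when control replicate 3 or KO replicate 4 was left out), from −0.086 to 0.18 for *Sox9* (when control replicate 2 or KO replicate 4 was left out), from −0.64 to 0.48 for *Epcam* (when control replicate 2 or KO replicate 5 was left out) and from −0.51 to 0.11 for *Cd24a* (when control replicate 1 or 3 or KO replicate 3 was left out). For extraction day it ran from −0.60 to 0.39 for *Krt19* (turned when control replicate 3 or KO replicate 3 or 5 was left out) and from −0.86 to 0.0030 for *Epcam* (when KO replicate 4 was left out). With the sign kept, it ran from −0.65 to −0.07 for *Spp1*, from −0.41 to −0.22 for *Sox9*, from −0.59 to −0.39 for *Onecut2* and from 0.55 to 1.36 for *Cd24a*. Leaving out either day 1 library leaves 1 library on that day, which then carries no information on genotype. No paired analysis was possible because the genotypes share only replicate number 3 in the labels. Depth limits *Prom1* and *Krt7*, at 10 counts or fewer, and 3 mice per genotype limit the rest.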
